A study of Mus musculus with 15 samples.

Results

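The Phf11 genes and the Ifi44 genes are 2 small families of interferon-stimulated genes, and CUT&RUN regions of H3K27ac, H3K36me3 and HA-tagged H3.3 were compared over 6 of their members, Phf11a, Phf11b, Phf11c, Phf11d, Ifi44 and Ifi44l, among 21938 protein-coding genes of the GENCODE M21 annotation. These genes were chosen by name from earlier results on the same wild-type and knockout libraries, so their differences between genotypes are a description, and no test was run on them. The cells were mouse bone marrow-derived macrophages (BMDMs), grown from marrow for 6 to 8 days in medium conditioned by L929 cells. WT cultures came from mice with floxed H3f3a and H3f3b (both alleles of each) and no Cre, and cKO cultures came from mice with the same floxed alleles and LysM-Cre, a recombinase expressed from Lyz2 in macrophages and granulocytes, so every WT and cKO library carries the loxP sites. H3f3a and H3f3b are the 2 genes for histone H3.3. H3.3-HA cultures came from knock-in mice whose H3f3b carries an HA tag. Mice were of C57BL/6 background, of both sexes and 8 to 10 weeks old.

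Each antibody and genotype had 2 biological replicates, giving 10 region lists (2 of H3.3-HA, and 2 WT and 2 cKO of each of H3K27ac and H3K36me3). The lists hold the positions of regions that passed a peak caller against IgG, and no signal height. A gene's value is therefore the length, or the percent, of its window (gene body plus 5 kb upstream) that lies in regions of a library, and 0 means only that no region passed the threshold. Whole cultures were profiled, so a mark in more of the cells and more of the mark per cell cannot be told apart. With 2 libraries against 2, the smallest p of a two-sided exact permutation test is 0.333.

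The libraries held 5365319 to 29988098 tags (aligned reads as the caller counted them), fewest in H3.3-HA (6951296 and 5365319), and more in cKO than WT for H3K36me3 (23782914 and 23503055 against 15086387 and 14027132). H3K36me3 regions covered 163.6 and 170.5 Mb in WT and 90.7 and 163.5 Mb in cKO, so cKO replicate 1 stood apart, with shorter regions (median width 895 bp, against 1291 bp in replicate 2), and the members' values are given for each replicate. H3K27ac regions covered 89.6 and 74.8 Mb in WT against 46.2 and 62 Mb in cKO. All 8 macrophage markers (Adgre1, Csf1r, Itgam, Cd68, Mertk, Fcgr1, Spi1, Lyz2) had H3K27ac regions in both WT libraries, and in both cKO libraries except Mertk (1 of 2), and H3K36me3 regions in all 4 libraries. Of 12 markers of other cell types none had an H3K36me3 region. H3K27ac regions lay at Elane, a neutrophil protease gene, in all 4 libraries, at Cd79a in 1 WT and 1 cKO library and at Cd3d in both cKO libraries alone, and 5 of the 12 had an H3.3-HA region in at least 1 library. The lists did not show the deletion: over H3f3b, exons 1 and 4 lay in H3K27ac regions of 2 of 2 cKO libraries, and over H3f3a, exon 2 lay in no region of any library, WT included. The study itself reports the loss of H3.3 by PCR, RNA and western blot. It adds that deletion of H3f3b appeared variable, complete in some cKO samples and partial in others. Genotypes are used as labelled.

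Interferon-stimulated genes are switched on when type I interferon activates transcription factors that bind the interferon-stimulated response element (ISRE) in their promoters. H3K27ac is an acetylation that marks active promoters and enhancers. H3K36me3 is laid down by SETD2, which travels with elongating RNA polymerase II, so it builds up along transcribed gene bodies. H3.3 is a histone variant placed outside DNA replication, often in active genes. Phf11 proteins carry a PHD finger, a fold found in many chromatin proteins. Ifi44 is an interferon-induced cytoplasmic protein, and Ifi44l is its paralog.

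The Phf11 genes lie in a row on mouse chromosome 14 (mm10), all on the minus strand and within 118.5 kb: Phf11a (chr14:59276913-59297522), Phf11b (chr14:59320964-59341351), Phf11d (chr14:59347407-59365470) and Phf11c (chr14:59380833-59395381). GENCODE places no other gene between them. The next protein-coding gene on one side is Gm6904 (chr14:59244441-59260216), which RefSeq names as a Phf11 pseudogene, and on the other Setdb2, a member of the SET-domain methyltransferase family. On chromosome 3, Ifi44 (chr3:151730922-151749960) and Ifi44l (chr3:151758737-151762892) are neighbours, also on the minus strand, within 32 kb. In the GENCODE transcript used here, Ifi44 has 8 exons and Ifi44l 3.

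Promoter sequences are shown because H3K27ac regions lay over them in most of these genes and because they tell how alike the paralogs are. They come from RefSeq (GRCm38.p6, the same assembly as mm10), where all 6 genes matched. The sequence of Gm6904 was read from the same genome, before its GENCODE start. Each line gives 100 bases, 5′ to 3′ on the gene's strand, and the capitals mark a match to the ISRE core GAAANNGAA or to the ETS-IRF composite core GGAANNGAA, searched on both strands. Each line ends at the base before the start site, except those of Phf11d and Ifi44. Phf11d runs from -96 to 4 and Ifi44 from -129 to -30 from the start site. Start sites here are those of RefSeq, or of GENCODE for Gm6904.
Phf11a (chr14:59297523-59297622): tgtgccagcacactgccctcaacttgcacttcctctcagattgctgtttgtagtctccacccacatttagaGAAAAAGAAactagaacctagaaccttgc
Phf11b (chr14:59341331-59341430): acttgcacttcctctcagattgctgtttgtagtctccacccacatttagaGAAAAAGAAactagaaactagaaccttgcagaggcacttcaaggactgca
Gm6904 (chr14:59260217-59260316): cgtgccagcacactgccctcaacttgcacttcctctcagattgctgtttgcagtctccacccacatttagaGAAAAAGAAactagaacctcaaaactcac
Phf11d (chr14:59365487-59365586): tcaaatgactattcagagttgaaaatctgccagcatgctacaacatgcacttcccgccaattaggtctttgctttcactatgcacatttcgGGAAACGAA
Ifi44 (chr3:151749940-151750039): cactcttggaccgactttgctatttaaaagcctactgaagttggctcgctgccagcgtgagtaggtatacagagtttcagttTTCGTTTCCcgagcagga
Ifi44l (chr3:151762892-151762991): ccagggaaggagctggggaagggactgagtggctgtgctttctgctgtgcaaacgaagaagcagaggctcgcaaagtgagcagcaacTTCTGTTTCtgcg

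The 300-base promoters of Phf11a and Phf11b (250 bases before the RefSeq start and 50 after) were identical at 274 of 279 aligned bases (98.2%), and that of Gm6904 matched Phf11a at 94.3%. Phf11d matched Phf11a at 77.5% of 244 aligned bases. Phf11a and Phf11b shared the same ISRE core letters, at -29 to -21 and at -50 to -42 from their RefSeq start sites. Gm6904 had them at -29 to -21 from its GENCODE start. All 3 also had the PU.1 core GAGGAAGT on the opposite strand, at -73 to -66 in Phf11a and Gm6904 and at -94 to -87 in Phf11b. PU.1 is the ETS factor that specifies macrophages. Phf11c, whose RefSeq start lies inside the GENCODE gene, had the PU.1 core at -105 to -98 and neither interferon-type core. Phf11d had the composite core across its RefSeq start site. Ifi44 had the composite core at -47 to -39 and, beyond the printed stretch, an ISRE core across the RefSeq start site (-3 to 6). Region positions below are counted from GENCODE starts, which differ from these for Phf11b, Phf11d and Ifi44. The Phf11d core (chr14:59365487-59365495) lay upstream of its GENCODE start (59365470). The Ifi44 composite core (chr3:151749949-151749957) lay inside the GENCODE gene, which starts at 151749960. Ifi44l had an ISRE core at -13 to -5. Of 32851 RefSeq promoters, 8.56% held the ISRE core, 8.24% the composite core, 3.2% the PU.1 core and 8.3% the GAS TTCNNNGAA, which none of the 6 genes held. The composite core was added after the sequences had been seen. The 2 interferon-type cores can overlap on the same letters, and 15.8% of promoters held at least one of them, as did 5 of the 6 genes.

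Ifi44 was the member with regions of both marks in cKO and none in WT. The study itself shows Ifi44 as an example of a gene that gained both marks in cKO cells. Its window held no H3K27ac region in either WT library. In cKO it held 1 region over the start site, of 2882 bp in replicate 1 and 4567 bp in replicate 2, covering 12% and 19% of the window. The merged region (chr3:151745755-151750321) overlapped exons 1 to 4, with exon 4 in cKO replicate 2 alone. In replicates 1 and 2 the region reached 271 and 361 bp upstream of the start and 2610 and 4205 bp into the gene. The composite core printed above lay inside the region in both cKO libraries. Of the other printed matches, those of Phf11b, Gm6904 and Phf11d lay in H3K27ac regions of 2 WT and 2 cKO libraries. The match of Phf11a lay in those of 2 WT libraries and 1 cKO library, and that of Ifi44l in 1 WT and 0 cKO.

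H3K36me3 over Ifi44 was likewise absent from both WT lists. In cKO it covered 13911 bp of the window in replicate 1, in 4 fragments, and 18430 bp in replicate 2, where 1 region of 18629 bp (chr3:151730222-151748850) ran over exons 3 to 8. As a share of the gene body alone, this was 73.1% and 94.2%. The mark started inside the gene, 1845 and 1110 bp after the start site, and ended at or past the 3′ end. Ifi44 ranked 21st of 21938 genes by the cKO minus WT difference in H3K36me3 covered length, which was 16170.5 bp (cKO SD 3195, n = 2). For H3K27ac its difference of 3724.5 bp (cKO SD 1192, n = 2) ranked 164th.

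Ifi44l, whose 3′ end lies 8776 bp from the Ifi44 start, showed none of this. Neither mark had a region in its window in either cKO library. The single region of any kind was an H3K27ac region of 501 bp, the caller's smallest common width, in WT replicate 2 over the start site. The 2 paralogs also shared little sequence: 0.0894% of the 25-base words of the Ifi44 body occurred in Ifi44l.

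**Figure D1:**
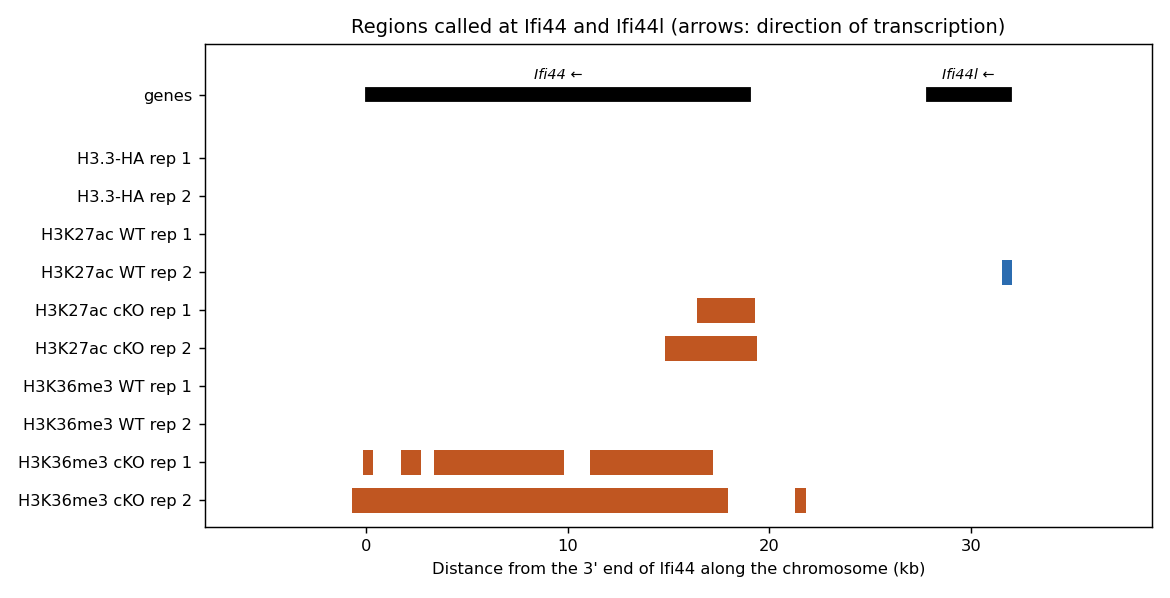
Regions called at Ifi44 and Ifi44l in the 10 libraries, one row per library, against the distance in kb from the 3′ end of Ifi44 along the chromosome. Coloured blocks are regions (grey H3.3-HA, blue WT, orange cKO) and black bars are gene bodies. Ifi44 carries blocks in all 4 cKO rows and in no WT or H3.3-HA row, and Ifi44l carries 1 block of 501 bp, in H3K27ac WT replicate 2.

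In the Phf11 cluster, Phf11a, Phf11b and Phf11d carried H3K27ac at the start site in both genotypes, and H3K36me3 over their bodies covered more in cKO. Phf11a had an H3K27ac region over its start site in all 4 libraries, of 1127 and 1035 bp in WT and 1456 and 778 bp in cKO, so the groups overlapped. Its H3K36me3 was 0 bp in both WT libraries. In cKO it covered 9535 bp in replicate 1, in 7 fragments, and 16824 bp in replicate 2, in 3 regions, or 46.3% and 81.6% of the gene body. The 3 merged regions that were in both cKO and neither WT library (chr14:59276235-59285040, chr14:59285664-59287496 and chr14:59288040-59295169) overlapped exons 2 to 8. Exon 2 was reached in cKO replicate 2 alone, and exon 3 in cKO replicate 1 alone. By the difference in H3K36me3 covered length, 13179.5 bp (cKO SD 5154, n = 2), Phf11a ranked 40th of 21938 genes.

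Phf11b carried some H3K36me3 in WT. It covered 3507 and 4197 bp in WT and 7228 and 16908 bp in cKO, so both cKO libraries lay above both WT libraries, at 3.13 times the WT mean, with the cKO replicates far apart. The mean difference of 8216 bp was 13056 bp without cKO replicate 1 and 3376 bp without cKO replicate 2. The mark was in 5 fragments of 501 to 1255 bp in WT replicate 1 and 3 of 829 to 2216 bp in WT replicate 2. In cKO replicate 1 it was in 5 fragments of 501 to 2297 bp, and in cKO replicate 2 in 2 regions, of 15747 bp over exons 3 to 9, reaching past the 3′ end of the gene, and of 2604 bp over exon 2. A merged region (chr14:59336006-59338678) was called in both cKO libraries and in no WT library. It reached exon 2 in cKO replicate 2 alone. H3K27ac at Phf11b covered 1197 and 1323 bp in WT against 3822 and 5127 bp in cKO, 3.55 times the WT mean.

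Phf11d was the most covered by H3K36me3 in WT, with 6261 and 7900 bp (34.7% and 43.7% of the body). In cKO it had 11691 and 14817 bp (64.7% and 82%), again above both WT libraries, at 1.87 times the WT mean. No merged region over Phf11d was in both cKO and neither WT library, so the difference was one of length. H3K27ac at its start site covered 1641 and 1840 bp in WT and 2449 and 3047 bp in cKO.

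Phf11c differed from the others of its cluster at its start site. No H3K27ac region lay over its start site in any library. In WT an H3K27ac region lay 1304 to 3340 bp upstream, of 1704 and 1733 bp. In cKO the upstream regions were shorter, with 678 bp in replicate 1 and 1002 bp in 2 pieces in replicate 2. Within the Phf11c body, H3K27ac covered 2260 and 0 bp in WT and 863 and 1791 bp in cKO. Over the whole window it covered 3964 and 1733 bp in WT and 1541 and 2793 bp in cKO, and the groups overlapped. H3K36me3 in its window was 2616 and 2798 bp in WT and 1139 and 4401 bp in cKO, and the groups overlapped. Of the WT lengths, 1952 and 2297 bp lay upstream, in a region that continued from the 3′ end of Setdb2. Within the Phf11c body the lengths were 664 and 501 bp in WT and 1139 and 3900 bp in cKO. There both cKO libraries lay above both WT libraries, as in the other Phf11 genes.

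**Figure D2:**
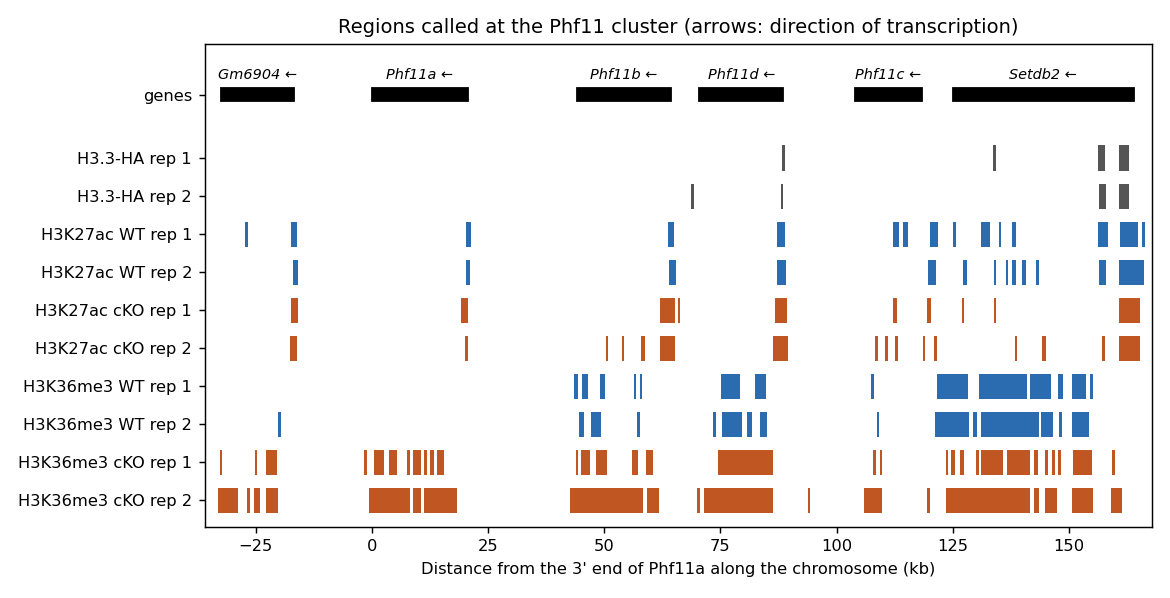
Regions called at the Phf11 cluster in the 10 libraries, one row per library, against the distance in kb from the 3′ end of Phf11a along the chromosome; colours and bars are as in the map of Ifi44. Phf11a is empty in both H3K36me3 WT rows and has blocks in both cKO rows, in 7 fragments in replicate 1. Phf11d has longer blocks in both cKO rows than in the WT rows, and Phf11b has a long block in cKO replicate 2 alone. Setdb2 has blocks in all 4 H3K36me3 rows, in 11 fragments in cKO replicate 1.

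Within each gene, H3K36me3 began some distance after the start site. In cKO the first region inside the gene began 5044 and 2353 bp after it in Phf11a (replicates 1 and 2), 3865 and 2673 bp in Phf11b, 2339 and 2258 bp in Phf11d and 1845 and 1110 bp in Ifi44. In WT it began 6217 and 6660 bp after the start site of Phf11b and 3784 and 3444 bp after that of Phf11d, so it lay nearer to the start site in both cKO libraries of these genes. The first 20% of the body, where most of the H3K27ac lay, had H3K36me3 in 0% of Phf11a, 5.22% of Phf11b, 35.3% of Phf11d and 51.5% of Ifi44 in cKO replicate 1. In cKO replicate 2 these shares were 42.9%, 34.5%, 37.5% and 70.9%. The next 20% was covered over 60.1%, 56.7%, 100% and 100% in replicate 1 and 100%, 80.2%, 100% and 100% in replicate 2, in the same order of genes. Phf11c had H3K36me3 mainly between 60% and 80% of the way along the body, with 22.8% and 17.2% of that stretch in WT and 36.8% and 100% in cKO. Outside the genes, cKO replicate 2 had an H3K36me3 region of 501 bp in the upstream window of Ifi44, 2258 bp from its start site.

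The H3K27ac regions over the start sites of Phf11a, Phf11b and Phf11d reached further into the gene in both cKO than in both WT libraries. At Phf11a they reached 412 and 436 bp in WT and 1436 and 679 bp in cKO, while their upstream reach was 714 and 598 bp in WT and 19 and 98 bp in cKO. More of the Phf11a region thus lay within the gene and less of it upstream in cKO. At Phf11b the reach into the gene was 623 and 420 bp in WT and 2478 and 2437 bp in cKO, with like upstream reach (573 and 902 bp, and 842 and 890 bp). At Phf11d it was 1280 and 1304 bp in WT and 1715 and 2150 bp in cKO. Of 1890 protein-coding genes with an H3K27ac region over the start site in all 4 libraries, 24.4% had this order, as did 20 of 22 such genes of a list of interferon-stimulated genes. Gm6904 did not: its regions reached 687 and 330 bp in WT and 685 and 938 bp in cKO.

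**Figure D3:**
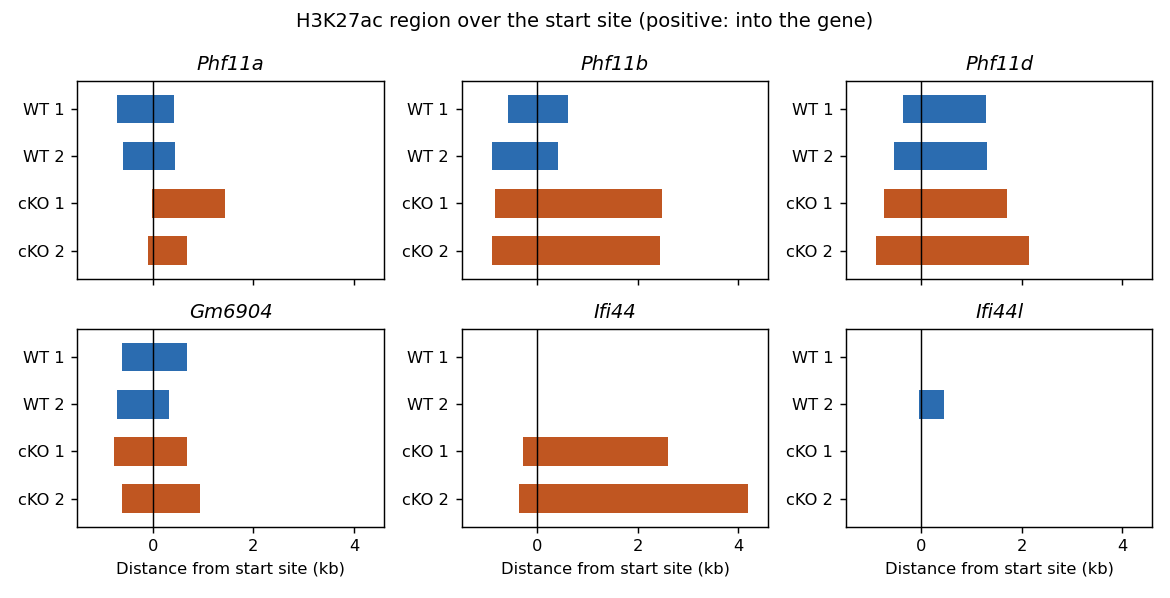
H3K27ac region over the start site of 6 genes, one bar per library, against the distance from the GENCODE start site in kb, with positive values into the gene; blue is WT and orange cKO. The cKO bars of Phf11a, Phf11b and Phf11d extend further right than their WT bars, those of Gm6904 do not separate, and Ifi44 has bars of 2882 and 4567 bp in cKO alone.

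Counted over the members, an H3K27ac region in both cKO and neither WT library lay in the window of 1 of 6 (Ifi44), beside 10.1% of all protein-coding genes. An H3K36me3 region of that kind lay in 3 of 6 (Phf11a, Phf11b, Ifi44), beside 4.62%, and both marks at once in 1 of 6, beside 1.17%. The H3K36me3 count was 5 without cKO replicate 1 and 4 without cKO replicate 2. The H3K27ac count was 2 without WT replicate 1, 3 without cKO replicate 1 and 2 without cKO replicate 2. Leaving out a library loosens the rule for every gene, because fewer libraries must agree. No share of all genes was taken under the looser rule, so the shares above are not a background for these counts. Regions in both WT and neither cKO library were in 0 of 6 for either mark, beside 21.7% for H3K27ac and 12.9% for H3K36me3. By covered length of the window, both cKO libraries lay above both WT libraries in 3 of 6 for H3K27ac (Phf11b, Phf11d, Ifi44), beside 10.1%. For H3K36me3 they did in 4 of 6 (Phf11a, Phf11b, Phf11d, Ifi44), beside 4.28%. Over the gene body alone, the H3K36me3 of Phf11c and the H3K27ac of Phf11a had this order too. The median difference over the members was 521.8 bp for H3K27ac and 7194.8 bp for H3K36me3, and over all genes it was 0 for both. Among genes with any region of the mark it was -359.5 bp for H3K27ac and -1300 bp for H3K36me3. Since these contrasts chose the genes, nothing is read from the shares.

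**Figure D4:**
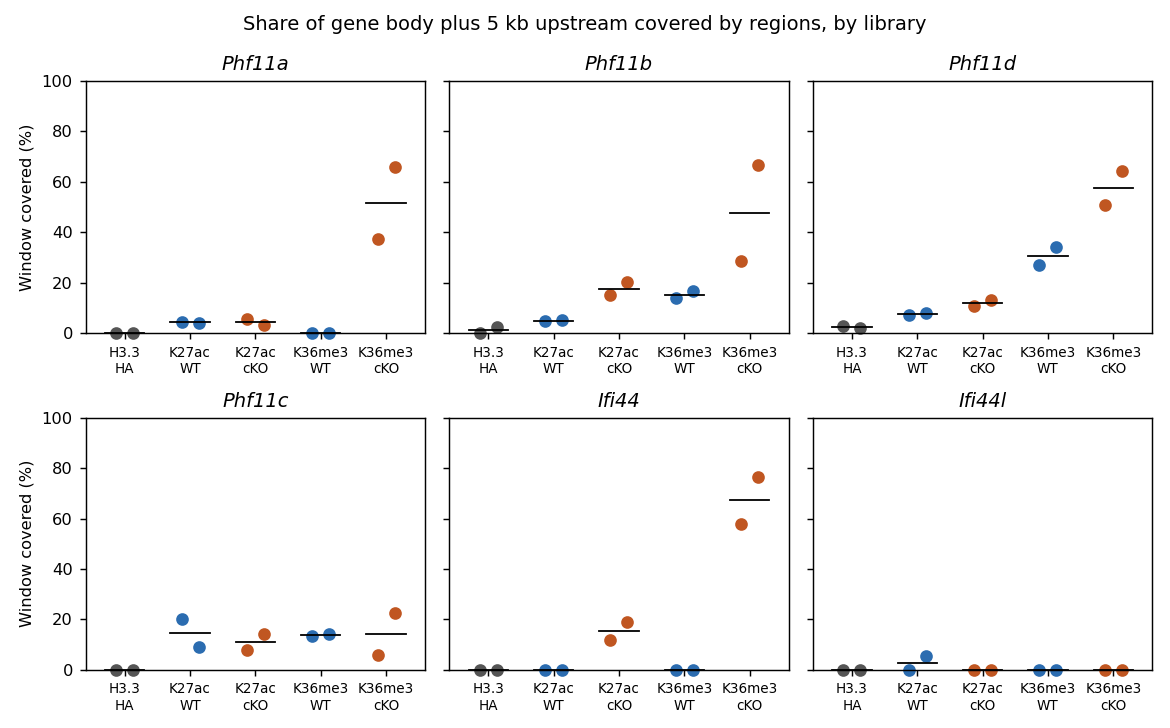
Percent of each gene's window covered by regions, one point per library and a line at the mean of the 2 libraries, for H3.3-HA (grey), WT (blue) and cKO (orange). The H3K36me3 cKO points of Phf11a (37.2 and 65.7%), Phf11b, Phf11d and Ifi44 (57.9 and 76.7%) lie above their WT points, those of Phf11c lie on both sides, and Ifi44l is at 0 for H3K36me3.

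Because the Phf11 paralogs share sequence, reads of 25 bases could be assigned to the wrong copy, and how the aligner's choice among copies affected these lists was not tested. Of the 25-base words in the gene body, 51.3% of Phf11a, 51.5% of Phf11b, 26.4% of Phf11d and 19.5% of Phf11c also occurred in another gene of the family, Gm6904 included. Over only the bases whose word was in no other family member, H3K36me3 covered 0 and 0% of Phf11a in WT and 45.8 and 86.4% in cKO. The same measure was 21.9 and 21.2% against 44.3 and 85.2% in Phf11b, and 32.2 and 45.5% against 65.2 and 76.4% in Phf11d. Regions span shared and unshared bases alike, so these shares do not show where within a region its reads lay. At the promoters of Phf11a, Phf11b and Gm6904, which are nearly the same sequence, the share of H3K27ac that belongs to each is uncertain.

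H3.3-HA regions in both libraries were found in 1 of 6 windows, that of Phf11d, beside 44.2% of all protein-coding genes. At Phf11d the regions were of 627 and 501 bp and shared 208 bp at the start of the gene (chr14:59365227-59365434), in exon 1, inside the H3K27ac regions of all 4 WT and cKO libraries. Phf11b had 1 region of 638 bp in replicate 2 alone, 4335 to 4972 bp upstream. Phf11a, Phf11c, Ifi44 and Ifi44l had none. On the list of interferon-stimulated genes, 31 of 39 had an H3.3-HA region in both libraries, among them Oasl1 with 4170 and 5504 bp. The H3.3-HA libraries were the shallowest, and an absent region there says only that none was called at that depth.

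Around the clusters, the 4 nearest protein-coding genes on each side of each were taken as neighbours, 16 in all. They were not all close: Adgrl2, Ttll7 and Prkacb lay 2740.4, 4746.9 and 4917.9 kb from the Ifi44 genes. Windows also differed in length, with 9156 bp at Ifi44l and 179973 bp at Adgrl2. Gm6904 was the 1 neighbour with more H3K36me3 in both cKO than in both WT libraries, with 0 and 501 bp in WT and 3397 and 8091 bp in cKO. Over bases not shared with the family it had 0 and 3.98% in WT and 25 and 47.5% in cKO. Setdb2, 6.63 kb from Phf11c, had 22968 and 23529 bp of H3K36me3 in WT and 18788 and 27272 bp in cKO, and the groups overlapped. Its H3K27ac went the other way from that of Phf11b and Phf11d, with 10643.5 ± 245.4 bp in WT and 6024 ± 674.6 bp in cKO (SD, n = 2). Rcbtb1, on the far side of Gm6904, had less of both marks in cKO, with 18274 and 19542 bp of H3K36me3 in WT and 2495 and 9940 bp in cKO.

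Covered length in both cKO below both WT libraries was found for H3K27ac in 8 of 16 neighbours, beside 22.3% of all genes, and for H3K36me3 in 4 of 16, beside 20.6%. More covered length in both cKO libraries was found for H3K27ac in 0 of 16, beside 10.1%, and for H3K36me3 in 1 of 16, beside 4.28%. A region in both cKO and neither WT library lay in 3 of 16 for H3K27ac (Rcbtb1, Adgrl4, Adgrl2), beside 10.1% of all genes. For H3K36me3 it lay in 3 of 16 (Gm6904, Setdb2, Cab39l), beside 4.62%. A region in both WT and neither cKO library lay in 7 of 16 for H3K27ac, beside 21.7%, and in 5 of 16 for H3K36me3, beside 12.9%. The neighbours were not all separate, since Setdb2 and Cab39l held the same H3K36me3 region (chr14:59435940-59438431). Cab39l and Cdadc1 also overlap, and the WT-only H3K27ac regions of Cdadc1 were counted at Cab39l too. Ptgfr, the first gene past Ifi44l and a prostaglandin receptor, had no region of either mark, as had Gm5142, 1700129C05Rik, Shisa2 and Ttll7.

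A list of 40 interferon-stimulated genes was taken for comparison, of which 39 are protein-coding in GENCODE (Mx2 is a polymorphic pseudogene there). H3K27ac covered length was above both WT libraries in both cKO libraries in 31 of 39, beside 10.1% of all protein-coding genes. For H3K36me3 this was so in 21 of 39, beside 4.28%. An H3K27ac region in both cKO and neither WT library lay in 14 of 39, beside 10.1% of all genes. An H3K36me3 region of that kind lay in 7 of 39, beside 4.62%. Both together lay in 1 of 39, Herc6, an E3 ligase for ISG15, beside 1.17% of all genes, where Ifi44 had both among the members. Unlike Ifi44, Herc6 had 33199 and 32188 bp of H3K36me3 in WT, and an H3K27ac region in both WT and neither cKO library. Oasl1 was not in that count, yet had 0 and 501 bp of H3K27ac in WT and 7310 and 8202 bp in cKO. Its H3K36me3 was 0 and 0 bp in WT and 11825 and 12563 bp in cKO. The differences below are between means of 2 libraries. The median H3K27ac difference over the list was 2291 bp and the median H3K36me3 difference 1870.5 bp. By H3K27ac, Oasl1, an oligoadenylate synthetase-like gene (7505.5 bp), and Rsad2, the antiviral viperin (6017.5 bp), were among the greatest differences. The least were Ifi27l2a (194.5 bp), Herc6 (-40 bp) and Trex1, a DNA exonuclease (-404 bp). By H3K36me3 the greatest were Herc6 (16462 bp), Oasl1 (12194 bp) and Usp18, the ISG15 protease (9959 bp), and the least Xaf1 (-823 bp), Ddx58 (-1667.5 bp) and Irf9 (-4233.5 bp). The H3K36me3 differences of Ifi44 (16170.5 bp) and Phf11a (13179.5 bp) lay between those of Herc6 and Oasl1, although the H3K27ac difference of Phf11a was 36 bp.

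**Figure D5:**
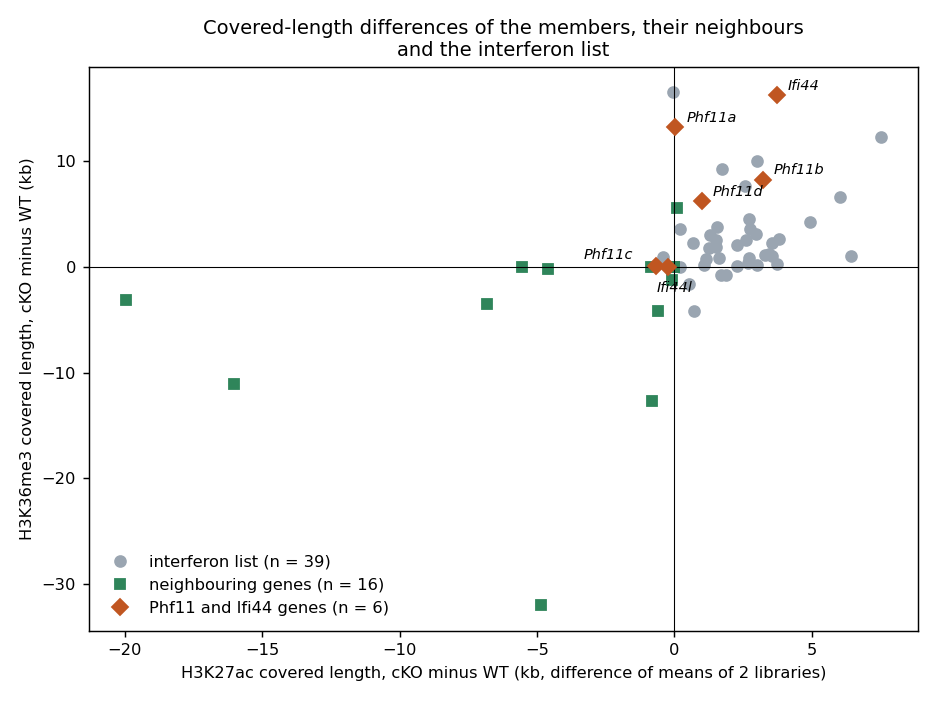
Difference in covered length, cKO minus WT (kb, difference of the means of 2 libraries), for H3K27ac on the horizontal and H3K36me3 on the vertical axis, with 1 point per gene for the 6 members (orange), 16 neighbours (green) and 39 interferon-stimulated genes (grey). Ifi44 lies at 3.72 and 16.2 kb, Phf11a at 0.036 and 13.2 kb, and Phf11c and Ifi44l near 0 on both axes, while most neighbours lie at or below 0 on both.

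The genes with the most similar profile over the 10 libraries were found by the smallest mean absolute difference in percent covered. For Ifi44 they were Ifi206 (3.28 percentage points) and Ifi213 (4.02), both interferon-inducible genes of the PYHIN family, and Gm4951 (5.42). For Phf11a they were Hoxa11 (4.27), Gm4951 (4.59) and F830016B08Rik (5.09), and for Phf11b Parp11 (4.11), Gtse1 (4.27) and Gm4951 (4.92). For Phf11d they were Herc6 (3.38), Il3ra (3.65) and Tpx2 (3.7), and for Phf11c Cenpn (2.04), Orc1 (2.23) and Zbtb33 (2.34). Ifi44l, with almost no region, was nearest to Olfr913 (0.0405), 4931440F15Rik (0.0583) and Fabp1 (0.0706).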

How the data were processed

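CUT&RUN libraries of H3.3-HA, H3K27ac and H3K36me3 from BMDMs were used, with 2 biological replicates per group (10 region lists); the 5 IgG samples have no list here. The deposited files list regions by start and end positions, with no other unit. Per the study's methods, paired reads of 25 bases were aligned with Bowtie2 to mm10. Per the file headers, regions were called by HOMER in each library against IgG (peak size 500 bp, at least 4-fold over IgG, Poisson p 1e-04, and a local filter over 10000 bp); cutadapt and deepTools are also named in the submitters' processing notes. Here, regions were intersected with GENCODE M21 windows (1 bp overlap), and regions of the 4 libraries of a mark were merged before sorting them into those present in 2 of 2 cKO and 0 of 2 WT libraries, or the reverse. SDs are over 2 libraries. Python 3.11.15, numpy 2.4.6 and Biopython 1.88 were used, and the overlap code recovered the known answers of simulated lists. Members, gene lists and motifs were chosen with earlier results of these data known. The genes named are the members, genes between them, the 4 nearest protein-coding genes on each side, the 3 greatest and 3 least differences of an interferon list, and the 3 most similar profiles; 1 gene that this rule names is not reported here. Alternatives were gene bodies alone, 20 kb upstream, 200 bp overlap, regions of at least 1 kb, equal numbers of widest regions and leaving out each library. Protein sequences were not used here.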

Additional observations from a re-analysis of the deposited data

How the results depend on the processing

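The region lists hold no signal, so depth acts through the caller's threshold, and a value of 0 is a missing call. No result here comes from a test, and none was paired, because the labels link no WT culture to a cKO culture. The count of members with an H3K27ac region in both cKO and neither WT library was 1, and 1 to 3 when each library was left out in turn. Counted by covered length above both WT libraries, a measure added after the data were seen, it was 3. The H3K36me3 count was 3, and 3 to 5 when each library was left out. Leaving out a library loosens the rule for every gene, and no share of all genes was taken for those counts. The H3.3-HA count was 1, was 1 to 2 with a library left out, and was 0 with regions of at least 1 kb, because both Phf11d regions are shorter. The other window, overlap and list-size choices left all 3 counts at their values. The H3K36me3 differences of Phf11a (9535 to 16824 bp), Phf11b (3376 to 13318.5 bp), Phf11d (4610.5 to 7770.5 bp) and Ifi44 (13911 to 18430 bp) were positive under each change of window, width, list size or library; that of Phf11b was lowest without cKO replicate 2 and highest with 20 kb upstream, and that of Phf11c ran from -1568 to 1937 bp.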
